A study of Mus musculus with 9 samples.

Results

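The heat shock proteins, J proteins and chaperonins are the protein-folding machinery of the cell, and their mRNAs were followed in RNA recovered with the RNA sensor RIG-I. Members were taken by symbol. They were the protein-coding genes named Hsp90, Hspa, Hspb, Hspd1, Hspe1 and Hsph1, the J proteins Dnaja, Dnajb and Dnajc, Tcp1 and the Cct subunits of the chaperonin TRiC, and the Bag cochaperones, without Hspbap1 and Hspbp1. This gave 86 of the 22396 genes in the count table, of which 21453 were protein-coding in the GENCODE annotation. The member Cct6a is not among these and was taken as protein-coding from RefSeq. There were 3 HSP90 genes, 14 HSP70 and HSP110 genes, 45 J proteins (4 of class A, 13 of class B and 28 of class C), 8 small heat shock proteins, 2 mitochondrial chaperonin genes, 8 TRiC subunits and 6 Bag genes.

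HSP70 binds short hydrophobic stretches of unfolded clients, J proteins bring the clients and trigger ATP hydrolysis, and the HSP110 and BAG proteins let the client go by exchanging the nucleotide. HSP90 acts later on nearly folded clients such as kinases, TRiC folds actin and tubulin in a closed chamber, and small heat shock proteins hold unfolded clients without ATP. Under proteotoxic stress the factor HSF1 raises transcription of the inducible members, while constitutive relatives such as Hspa8 and Hsp90ab1 are made in nearly all cells. Melanoma cells, like other tumour cells, are known to lean on these chaperones. OSGEP carries the catalytic site of KEOPS, which places the t6A modification on tRNAs that read codons starting with A.

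The cells of all groups were mouse B16F10 melanoma cells that stably made RIG-I with a FLAG tag. The group shCtr carried a scrambled shRNA, and the groups shOSGEP#1 and shOSGEP#2 each carried an shRNA to deplete Osgep, brought in by lentivirus and selected with puromycin, and each group had 3 biological replicates from independent experiments. RNA bound to RIG-I was pulled down with anti-FLAG beads and sequenced as stranded libraries depleted of ribosomal RNA, so a value is a share of the recovered RNA. RNA of the lysate was not analysed here, so less of an mRNA in the cell and less binding of it to RIG-I cannot be told apart. Total counts were 40333037, 47750758 and 41805753 in shCtr, 34551436, 50224299 and 30697653 in shOSGEP#1 and 25460689 and 14914731 in shOSGEP#2 replicates 1 and 3. The library of shOSGEP#2 replicate 2 held 568995 counts, in which 3 counts amount to 5.27 CPM, the unit of counts scaled to library totals. It was therefore kept out of the comparisons and is given apart, and shOSGEP#2 stands for replicates 1 and 3. This choice was made with earlier results of these data known.

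Osgep itself (ENSMUSG00000006289), the target of both shRNAs, had 771, 949 and 649 counts in the shCtr libraries, 130, 58 and 47 in shOSGEP#1 and 2 and 43 in shOSGEP#2, or 19.1, 19.9 and 15.5 CPM in shCtr, 3.76, 1.15 and 1.53 in shOSGEP#1 and 0.0786 and 2.88 in shOSGEP#2. Every shOSGEP library lay below every shCtr library, and both shRNAs gave values in the direction of their label. Neither difference passed an adjusted p under 0.01, the threshold used throughout, in the main edgeR test. A call by edgeR is a call of the main test unless another fit is named. The test gave a log2 fold change −3.10, SE 0.734, edgeR adjusted p 0.0128 for shOSGEP#1, and a log2 fold change −3.84, SE 0.934, edgeR adjusted p 0.015 for shOSGEP#2, where SE is the standard error. With no filter edgeR called both, and DESeq2 on the 8 libraries called shOSGEP#2 only. The libraries of shOSGEP#2 were far apart, since replicate 1 held 2 counts and replicate 3 held 43.

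The libraries carried the RNA of pigment cells. The 7 melanocyte markers (Mlana, Pmel, Dct, Tyrp1, Tyr, Sox10 and Mitf) summed to 6336, 6039 and 8473 CPM in shCtr, 6288, 7565 and 6839.9 in shOSGEP#1 and 2617 and 3374 in shOSGEP#2. The shOSGEP#2 sums lay below those of all other libraries, and Tyrp1 was the most abundant of the 7 in shCtr. Tyr stood at 153, 153 and 193 CPM in shCtr, 30.4, 26.1 and 27.3 in shOSGEP#1 and 5.93 and 19.8 in shOSGEP#2, so every shOSGEP library lay far below shCtr. The 4 fibroblast markers (Col1a1, Col1a2, Dcn and Pdgfra) summed to 4.26, 6.03 and 6.27 CPM in shCtr, 4.08, 3.54 and 5.83 in shOSGEP#1 and 16.4 and 33.8 in shOSGEP#2, with Col1a2 the most abundant in shOSGEP#2 and Dcn at 0 in some libraries of each group. Leukocyte, keratinocyte and endothelial markers summed to at most 2.12 CPM in any of these 8 libraries, and Krt5 was at 0 in all of them. In bulk RNA, fewer cells of a type and less of an RNA per cell cannot be told apart. Counts of Lars2, which can take up reads of ribosomal RNA, made up 0.0296, 0.0109 and 0.0312% in shCtr, 0.0120, 0.134 and 0.0706% in shOSGEP#1 and 1.10 and 0.264% in shOSGEP#2, and mitochondrial genes 0.223, 0.147 and 0.303% in shCtr, 0.347, 0.445 and 2.96% in shOSGEP#1 and 0.211 and 0.268% in shOSGEP#2. The part of depth, Lars2 and the marker shifts in the shOSGEP#2 results was not tested.

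Members made up 1.83, 1.78 and 1.59% of counts in shCtr, 1.77, 1.67 and 1.75% in shOSGEP#1 and 1.53 and 1.58% in shOSGEP#2. The shOSGEP#2 shares were below those of the other 6 libraries, but the distance to shCtr replicate 3 was small. Of the 86 members, 69 had a count in each of the 8 libraries, 73 passed the filter on low counts and were tested, and 13 were not. Dnajb3, Dnajb8, Dnajc5g and Hspb3 had no count in any library, which allows at most 0.0597 CPM in the deepest and 0.201 CPM in the shallowest of the 8 (3 counts). Dnajb3, Dnajb8 and Dnajc5g are known mainly from testis. Dnajb7 was counted in 1 library only, with 7 counts in shOSGEP#1 replicate 2. Hspa1a had 1 count in shCtr replicate 3 and 2 in shOSGEP#2 replicate 3. Its sequence is nearly identical to that of Hspa1b, so the split of reads between these genes is uncertain.

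Per length of transcript, the constitutive cytosolic chaperones led. Hspa8, the constitutive HSP70, stood at 1578, 1406 and 954 CPM per kb in the shCtr libraries, and Hsp90ab1, the constitutive HSP90, at 997, 875 and 742. Hsp90aa1, the inducible HSP90, followed at 590.5, 601 and 511 CPM per kb. The order of Hspa8 and Hsp90ab1 held in the means (1312 and 871 CPM per kb), but their libraries overlapped. Exons of Hspa8 overlap the small nucleolar RNA genes Snord14c, Snord14d and Snord14e on the same strand. The part of their reads in its level was not tested. The next places were held by TRiC subunits, Cct7 with 453, 521 and 556 CPM per kb and Cct5 with 364, 355 and 491, and Cct7 and Hsp90aa1 also overlapped.

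**Figure D1:**
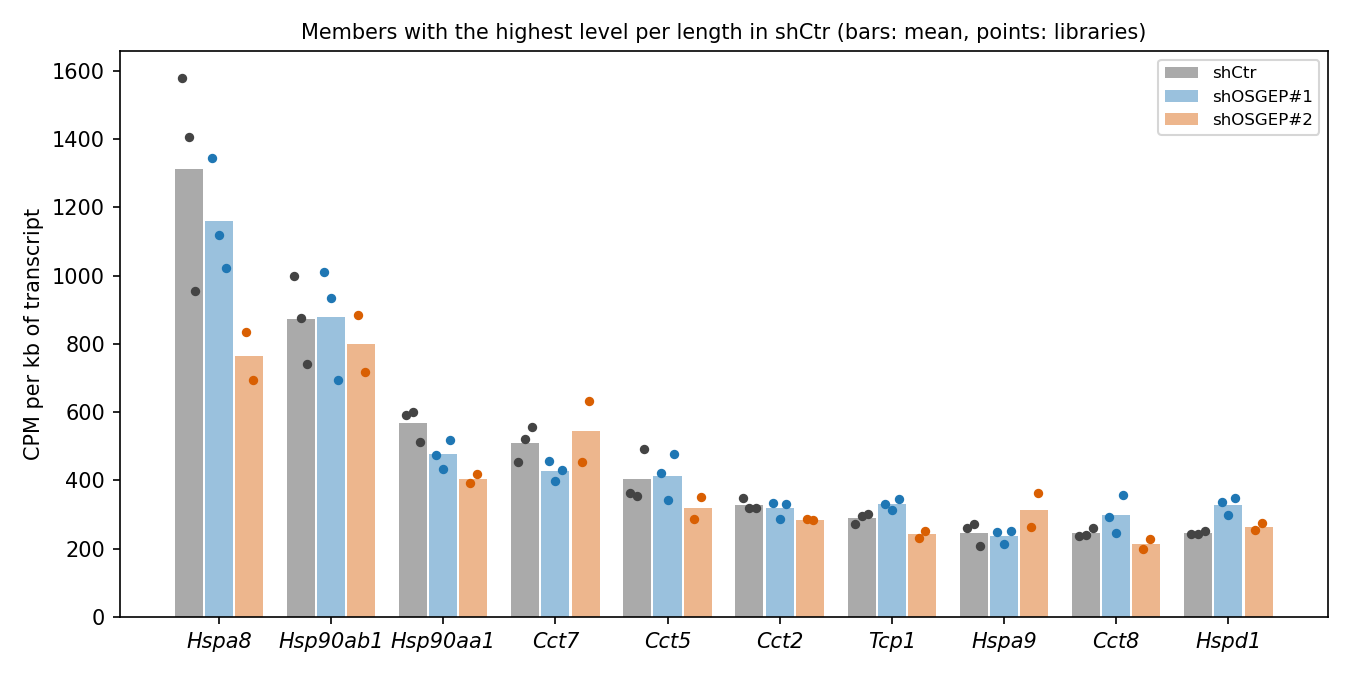
Level per length (CPM per kb of transcript) of the 10 members with the highest mean in shCtr, with bars for the group mean and points for the libraries, shOSGEP#2 replicate 2 left out. Hspa8 has the highest mean in shCtr (1312) and is lower in both shOSGEP#2 libraries, while the bars of Hsp90ab1 are of similar height in the 3 groups.

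With shOSGEP#1, J protein genes moved in both directions and 1 HSP70 gene rose. Hspa13, Dnajb14, Dnajc10 and Dnajc7 rose against shCtr, and Dnajb2 and Dnajc21 fell. These 6 were 8.22% of the 73 members tested, next to 9.67% of all genes tested (1232 of 12744), with 5% higher and 4.67% lower, so the members' share was near the background. The median log2 fold change was 0.00 over the members and 0.00 over all genes. None of these calls was held by every fit that left out 1 library. The count was 0 without shCtr replicate 1, shCtr replicate 2 or shOSGEP#1 replicate 2 (with 21, 19 and 19 members at an unadjusted p under 0.05 in edgeR), 2 without shCtr replicate 3 or shOSGEP#1 replicate 3, and 3 without shOSGEP#1 replicate 1. The count of all genes moved to 427, 318 and 763 without shCtr replicates 1, 2 and 3, and to 429 and 724 without shOSGEP#1 replicates 2 and 3. DESeq2 on the same 8 libraries called 11 members, the 6 among them, and 2419 of all genes.

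Dnajb14, a J protein of the endoplasmic reticulum (ER) membrane, stood at 32.6, 35.5 and 34.3 CPM in shCtr, 61.3, 74.2 and 84.4 in shOSGEP#1 and 24.0 and 35.3 in shOSGEP#2. All 3 shOSGEP#1 libraries lay above every shCtr library, while shOSGEP#2 overlapped shCtr (log2 fold change 1.09, SE 0.179, edgeR adjusted p 0.00219). Dnajb14 lost the call without shCtr replicates 1 and 2 and shOSGEP#1 replicate 2 (adjusted p up to 0.0147), and ranged from 7.76e-07 to 1 over 17 alternatives. Dnajc10, an ER disulfide reductase with a J domain, stood at 94.1, 112.1 and 99.4 CPM in shCtr, 149.6, 221 and 231 in shOSGEP#1 and 163 and 194 in shOSGEP#2. Libraries of both shRNAs lay above all of shCtr, and the shOSGEP#1 difference was called (log2 fold change 0.96, SE 0.178, edgeR adjusted p 0.00385). That of shOSGEP#2 was called by DESeq2 but not by the main edgeR test (log2 fold change 0.71, SE 0.196, edgeR adjusted p 0.0258). Dnajc10 lost the call without shCtr replicates 1, 2 and 3 and shOSGEP#1 replicates 2 and 3 (adjusted p up to 0.0235), and ranged from 6.79e-06 to 0.939 over 17 alternatives. Hspa13, an HSP70 relative that lacks the substrate-binding domain, stood at 26.3, 30.7 and 23.5 CPM in shCtr, 36.1, 61.7 and 66.3 in shOSGEP#1 and 31.9 and 38.2 in shOSGEP#2. Its shOSGEP#1 libraries lay above shCtr with replicate 1 nearest to it (log2 fold change 1.01, SE 0.226, edgeR adjusted p 0.00947). Those of shOSGEP#2 lay above shCtr as well, with no call (edgeR adjusted p 0.443). Nor was the difference between the shRNAs called (edgeR adjusted p 0.0621). Hspa13 lost the call without shCtr replicates 1, 2 and 3, shOSGEP#1 replicates 2 and 3 and shOSGEP#2 replicates 1 and 3 (adjusted p up to 0.0425), and ranged from 0.000234 to 1 over 17 alternatives.

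Dnajc7, whose TPR repeats bind both HSP70 and HSP90, stood at 88.1, 67.6 and 63.5 CPM in shCtr, 126, 108 and 158 in shOSGEP#1 and 75.4 and 71.6 in shOSGEP#2. The shOSGEP#1 libraries were the 3 highest, and shOSGEP#2 lay within shCtr (log2 fold change 0.83, SE 0.179, edgeR adjusted p 0.00817). Dnajc7 lost the call without shCtr replicates 1, 2 and 3 and shOSGEP#1 replicates 1, 2 and 3 (adjusted p up to 0.0489), and ranged from 0.000211 to 1 over 17 alternatives. Its exons overlap those of Cnp and Nkiras2 on the other strand. Dnajb2, which passes ubiquitinated clients to the proteasome, stood at 98.2, 96.8 and 61.9 CPM in shCtr, 44.98, 41.0 and 47.3 in shOSGEP#1 and 61.2 and 54.4 in shOSGEP#2. The shOSGEP#1 libraries were the 3 lowest, and shCtr replicate 3 lay below the other shCtr libraries (log2 fold change −0.96, SE 0.188, edgeR adjusted p 0.00511). Dnajb2 lost the call without shCtr replicates 1 and 2 and shOSGEP#1 replicates 1, 2 and 3 (adjusted p up to 0.0321), and ranged from 4.16e-05 to 0.928 over 17 alternatives. Dnajc21, a J protein of ribosome maturation, stood at 25.2, 23.1 and 26.9 CPM in shCtr, 12.8, 12.9 and 13.3 in shOSGEP#1 and 23.9 and 22.5 in shOSGEP#2. Its shOSGEP#1 libraries were tightly grouped below all others (log2 fold change −0.96, SE 0.169, edgeR adjusted p 0.00293). Dnajc21 lost the call without shCtr replicates 1, 2 and 3 and shOSGEP#1 replicates 1 and 2 (adjusted p up to 0.0165), and ranged from 3.73e-06 to 1 over 17 alternatives.

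With shOSGEP#2, each member that passed the threshold in the main test fell. They were Bag3, Hsph1, Hspa12b, Dnajc22, Cct3, Dnajb6 and Dnaja2, or 9.59% of the 73 tested, next to 9.55% of all genes (1217). Among all genes tested, 5.66% were higher and 3.89% lower, 59.2% of the calls being higher. The median log2 fold change was −0.06 over the members and −0.06 over all genes (0.05 and 0.03 with library totals). Scaling by library totals alone gave 8 members, with Dnajb5, Dnajc1 and Hspa14 higher and Bag3, Hsph1, Hspa12b, Dnajc22 and Cct3 lower, and 70.6% of all called genes higher. The count of members was 3 without shCtr replicate 1, 2 without shCtr replicate 2, 4 without shOSGEP#1 replicate 2 and 4 without shOSGEP#2 replicate 3, of which 2 were higher (Dnajb5 and Hspb6) and 2 lower (Bag3 and Hspa12b). The count of all genes was 584, 518 and 766 without shCtr replicates 1, 2 and 3, and 631 without shOSGEP#2 replicate 3. DESeq2 on the same 8 libraries called 2405 of all genes and 17 members, the 7 among them, with 5 higher (Dnajb5, Dnajc1, Dnajc10, Hspa14 and Hspb6). With no filter, edgeR called 1603 of all genes and 11 members, with 2 higher (Dnajc1 and Hspb6).

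**Figure D2:**
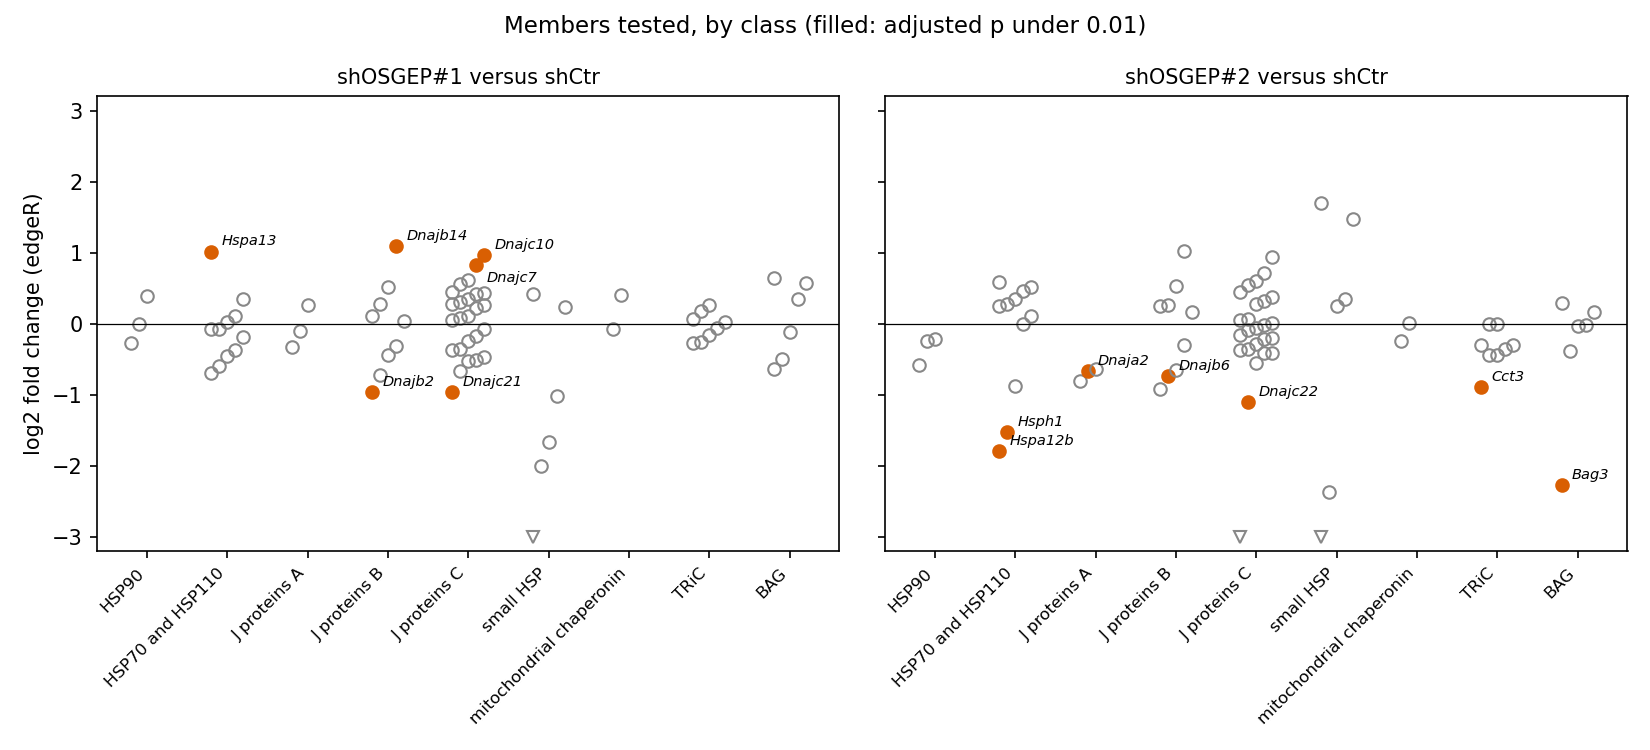
The log2 fold change (edgeR) of each of the 73 members tested against shCtr, by class, for shOSGEP#1 on the left and shOSGEP#2 on the right, with filled points for an adjusted p under 0.01 and triangles for values below −3. The filled points lie on both sides of 0 for shOSGEP#1 and below 0 for shOSGEP#2, where 3 members above 0 pass the threshold with library totals.

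Among the stress-inducible genes, Bag3 had the smallest adjusted p for shOSGEP#2. Bag3 (ENSMUSG00000030847) couples HSP70 to small heat shock proteins and to the autophagy of aggregates, and stood at 95.4, 87.7 and 58.8 CPM in shCtr, 59.0, 53.5 and 44.0 in shOSGEP#1 and 17.2 and 18.4 in shOSGEP#2. The values of shOSGEP#2 lay below all others, while shOSGEP#1 overlapped shCtr at its upper end. The shOSGEP#2 difference was called (log2 fold change −2.27, SE 0.239, edgeR adjusted p 0.000206), and that of shOSGEP#1 was not (log2 fold change −0.64, SE 0.194, edgeR adjusted p 0.0367). Bag3 kept the call in each of the 8 fits that left out 1 library, with an adjusted p of at most 0.00215, and ranged from 1.05e-18 to 0.364 over 17 alternatives. Hsph1, the inducible HSP110 that recharges HSP70, stood at 161, 174 and 120.2 CPM in shCtr, 113, 77.3 and 114 in shOSGEP#1 and 57.4 and 55.1 in shOSGEP#2. The 3 groups did not overlap, with shOSGEP#1 between the others. It was called for shOSGEP#2 (log2 fold change −1.52, SE 0.221, edgeR adjusted p 0.000952) and not for shOSGEP#1 (log2 fold change −0.59, SE 0.187, edgeR adjusted p 0.0434). Hsph1 lost the call without shOSGEP#2 replicate 3 (adjusted p up to 0.0113), and ranged from 2.25e-09 to 0.584 over 17 alternatives.

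Dnajb1, the main inducible J protein of the cytosol, stood at 58.6, 46.8 and 44.0 CPM in shCtr, 35.7, 27.8 and 27.7 in shOSGEP#1 and 30.4 and 25.8 in shOSGEP#2. Every shOSGEP library lay below every shCtr library, yet neither difference passed the threshold (log2 fold change −0.72, SE 0.178, edgeR adjusted p 0.0153 for shOSGEP#1, and log2 fold change −0.91, SE 0.206, edgeR adjusted p 0.0101 for shOSGEP#2). DESeq2 and edgeR with no filter called both, and edgeR without shOSGEP#1 replicate 3 called shOSGEP#2. Hsp90aa1 stood at 1811, 1842 and 1568 CPM in shCtr, 1456, 1332 and 1591 in shOSGEP#1 and 1200.3 and 1279.8 in shOSGEP#2. Its shOSGEP#2 libraries were the 2 lowest, and the difference was called by DESeq2 but not by edgeR (log2 fold change −0.58, SE 0.154, edgeR adjusted p 0.0216). The inducible HSP70 gene Hspa1b stood at 22.3, 16.02 and 7.39 CPM in shCtr, 10.9, 6.83 and 10.9 in shOSGEP#1 and 13.5 and 19.2 in shOSGEP#2. Both shRNA groups overlapped shCtr, which was wide, and shOSGEP#2 lay above shOSGEP#1, with no difference called (log2 fold change −0.69, SE 0.359, edgeR adjusted p 0.2 for shOSGEP#1 versus shCtr).

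The small heat shock proteins of this group were scarce. Hspb8, the partner of Bag3, had 134, 117 and 58 counts in shCtr, 7, 9 and 0 in shOSGEP#1 and 10 and 0 in shOSGEP#2, or 3.32, 2.45 and 1.39 CPM in shCtr, 0.203, 0.179 and 0 in shOSGEP#1 and 0.393 and 0 in shOSGEP#2. No shOSGEP library reached the lowest shCtr library, but the counts were few and edgeR called no difference (log2 fold change −4.16, SE 1.15, edgeR adjusted p 0.0257 for shOSGEP#1, and log2 fold change −3.52, SE 1.34, edgeR adjusted p 0.0851 for shOSGEP#2). DESeq2 called both, and edgeR called shOSGEP#1 without shOSGEP#2 replicate 1, without shOSGEP#2 replicate 3 and with only the groups compared. Hspb1, which caps unfolded clients and binds actin, stood at 2.75, 1.32 and 0.598 CPM in shCtr, 0.724, 0.438 and 0 in shOSGEP#1 and 1.18 and 2.82 in shOSGEP#2. The shOSGEP#2 values lay within or above those of shCtr, and the shOSGEP#1 difference was not called (log2 fold change −2.00, SE 1.06, edgeR adjusted p 0.209).

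Of the constitutive relatives, Hspa8 stood at 3481, 3102 and 2105 CPM in shCtr, 2965, 2467 and 2253 in shOSGEP#1 and 1839 and 1529 in shOSGEP#2. The shOSGEP#2 libraries were the 2 lowest, and shOSGEP#1 lay within shCtr, whose replicate 3 was low. The shOSGEP#2 difference was not called (log2 fold change −0.87, SE 0.224, edgeR adjusted p 0.0189), but DESeq2, the fit with no filter and the fit without shCtr replicate 3 were among those that did call it. Hsp90ab1 stood at 2514, 2205 and 1869.7 CPM in shCtr, 2544, 2351 and 1749.7 in shOSGEP#1 and 2232 and 1805 in shOSGEP#2. Its 3 groups overlapped. With Hsp90b1, all 3 HSP90 genes had a log2 fold change below 0 for shOSGEP#2 with each scaling. Of these 3 edgeR called 0 (unadjusted p under 0.05 for 1, DESeq2 1), next to 9.55% of all genes.

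**Figure D3:**
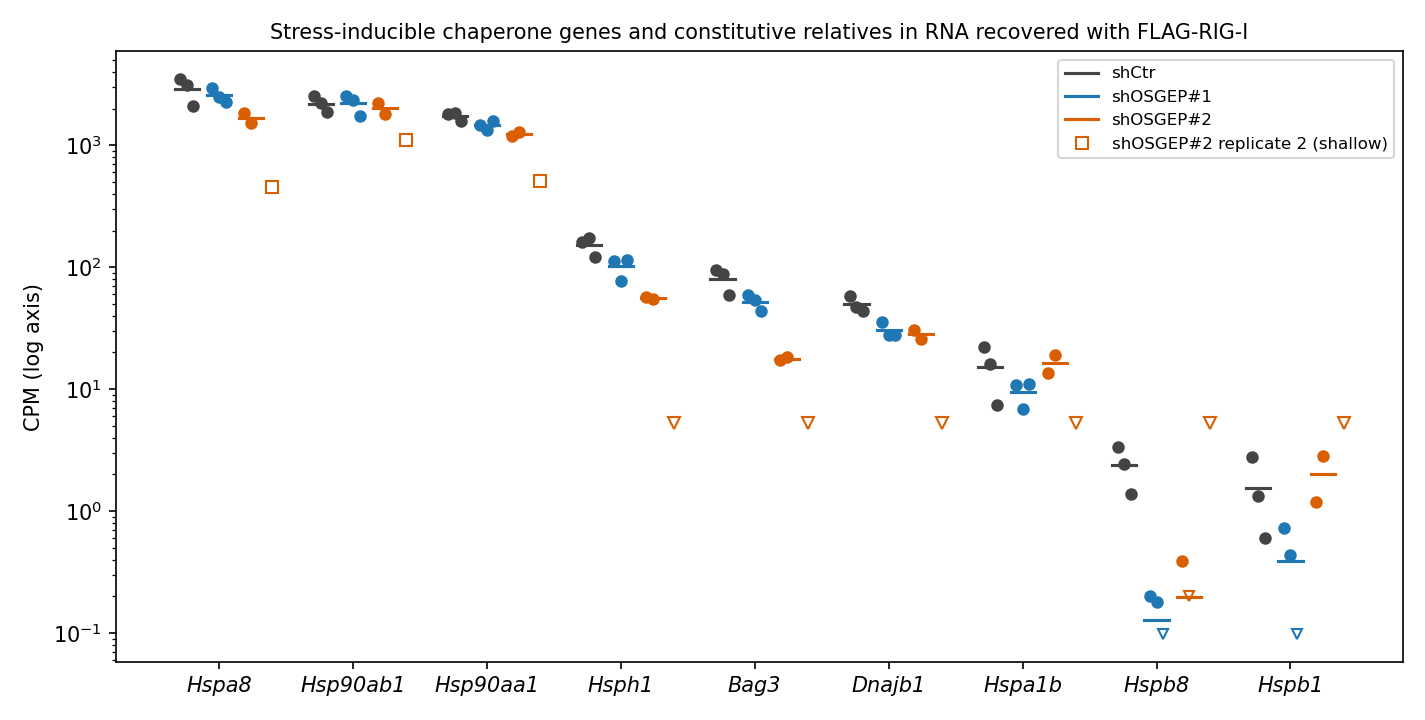
CPM on a log axis of stress-inducible chaperone genes and the constitutive relatives Hspa8 and Hsp90ab1, with points for libraries, bars for group means, open squares for the shallow shOSGEP#2 replicate 2 and open triangles at the level of 3 counts for libraries below it. In shOSGEP#2, Bag3 (17.2 and 18.4) and Hsph1 (57.4 and 55.1) lie below all other deep libraries.

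The HSP70 and HSP110 class had 11 of 14 members tested, with 1 called for shOSGEP#1 (Hspa13) and 2 for shOSGEP#2 (Hspa12b and Hsph1), or 9.09 and 18.2% next to 9.67 and 9.55% of all genes. Its median log2 fold change was −0.07 for shOSGEP#1 and 0.25 for shOSGEP#2. Hspa12b, a distant HSP70 relative known from endothelial cells, stood at 14.9, 12.1 and 11.3 CPM in shCtr, 12.6, 9.30 and 7.98 in shOSGEP#1 and 3.57 and 4.29 in shOSGEP#2. Its shOSGEP#2 libraries lay below all others, and shOSGEP#1 overlapped shCtr (log2 fold change −1.80, SE 0.305, edgeR adjusted p 0.00229). Hspa12b lost the call without shCtr replicates 1 and 2 (adjusted p up to 0.0129), and ranged from 5.91e-07 to 0.349 over 17 alternatives. The endothelial markers Pecam1 and Cdh5 summed to at most 2.12 CPM in any of the 8 libraries.

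J proteins, which choose the clients of HSP70, had 37 of 45 members tested, with 5 called for shOSGEP#1 (3 higher and 2 lower) and 3 for shOSGEP#2 (all lower). These were 13.5 and 8.11%, next to 9.67 and 9.55% of all genes. With library totals the shOSGEP#2 calls turned, with Dnajb5 and Dnajc1 higher, Dnajc22 lower and Dnajb6 and Dnaja2 lost. The median log2 fold change was 0.07 for shOSGEP#1 and −0.08 for shOSGEP#2, the latter turning to 0.01 under library totals. Dnajb6, which keeps polyglutamine proteins from aggregating, stood at 157, 152 and 142 CPM in shCtr, 149, 151 and 165 in shOSGEP#1 and 103 and 88.6 in shOSGEP#2. Both shOSGEP#2 libraries lay below the other 6, which overlapped (log2 fold change −0.74, SE 0.152, edgeR adjusted p 0.00638). Dnajb6 lost the call without shCtr replicates 1, 2 and 3, shOSGEP#1 replicates 1 and 2 and shOSGEP#2 replicate 3 (adjusted p up to 0.0531), and ranged from 8.14e-05 to 0.372 over 17 alternatives. Dnaja2, a cytosolic J protein of refolding and disaggregation, stood at 149.6, 147 and 128 CPM in shCtr, 135, 127 and 137 in shOSGEP#1 and 87.5 and 103 in shOSGEP#2. Again the shOSGEP#2 libraries were the lowest, just past the threshold (log2 fold change −0.67, SE 0.149, edgeR adjusted p 0.00978). Dnaja2 lost the call without shCtr replicates 1, 2 and 3, shOSGEP#1 replicates 1 and 2 and shOSGEP#2 replicates 1 and 3 (adjusted p up to 0.0446), and ranged from 0.000518 to 0.61 over 17 alternatives. Dnajc22, a membrane J protein, stood at 46.4, 50.9 and 70.6 CPM in shCtr, 43.3, 45.1 and 42.6 in shOSGEP#1 and 26.2 and 29.6 in shOSGEP#2. The order was shCtr, shOSGEP#1 and shOSGEP#2 with no overlap, and shCtr replicate 3 was the highest (log2 fold change −1.10, SE 0.207, edgeR adjusted p 0.00402). Dnajc22 lost the call without shCtr replicate 2 and shOSGEP#2 replicates 1 and 3 (adjusted p up to 0.0211), and ranged from 2.46e-05 to 0.792 over 17 alternatives.

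Dnajc6, the auxilin that uncoats clathrin vesicles with HSP70, is added here because of its values. It stood at 0.198, 0.440 and 0.502 CPM in shCtr, 0.405, 0.319 and 0.847 in shOSGEP#1 and 0 and 0 in shOSGEP#2. It was at 0 in both shOSGEP#2 libraries, where 3 counts over the group amount to 0.0743 CPM. With the shCtr mean of 0.380 CPM taken as exact, the shOSGEP#2 level was at least 5.12-fold lower. That mean rests on 8, 21 and 21 counts, whose error is not in the bound. The difference was not called (edgeR adjusted p 0.0522).

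The 8 TRiC subunits, which form 1 complex in equal numbers, were all tested. Together they made up 0.399, 0.424 and 0.458% of counts in shCtr, 0.427, 0.378 and 0.462% in shOSGEP#1 and 0.344 and 0.423% in shOSGEP#2. The groups overlapped, and shOSGEP#2 replicate 1 was the lowest library. For shOSGEP#1, edgeR called 0 of the 8 (unadjusted p under 0.05 for 0, DESeq2 0), next to 9.67% of all genes, and the log2 fold changes ran from −0.27 to 0.27. For shOSGEP#2, 7 of 8 were below 0 (6 with RLE size factors, library totals or DESeq2), with a median of −0.33, and 1 was called (12.5%, next to 9.55% of all genes). Cct3, the gamma subunit, stood at 324, 303 and 269 CPM in shCtr, 304, 259.8 and 247 in shOSGEP#1 and 193 and 149 in shOSGEP#2. The shOSGEP#2 libraries were below the other 6, and shOSGEP#1 overlapped shCtr (log2 fold change −0.89, SE 0.183, edgeR adjusted p 0.00634). Cct3 lost the call without shCtr replicates 1, 2 and 3, shOSGEP#1 replicate 2 and shOSGEP#2 replicate 3 (adjusted p up to 0.06), and ranged from 2.96e-05 to 0.767 over 17 alternatives. The other subunits were not called. Cct4, which DESeq2 called, was nearest (log2 fold change −0.44, SE 0.143, edgeR adjusted p 0.0472), and at the other end Cct6a and Cct7 had log2 fold changes of 0.00 and −0.01. Exons of Tcp1, Cct7, Cct8 and Cct6a overlap genes on the other strand (Acat3 and Mrpl18, Pradc1, Usp16 and Psph). Those of Tcp1 and Cct6a also overlap genes of small nucleolar RNAs on the same strand (Gm26130 and Snora15), which strand does not separate. Whether the counting used strand is not given in the sources used here, so these levels are uncertain.

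Of 5 ER chaperones taken by name, Hspa5, Hsp90b1, Dnajb9, Dnajb11 and Dnajc3, edgeR called 0 in all 3 comparisons (unadjusted p under 0.05 for 0, 1 and 1, DESeq2 0). Of all genes, 9.67, 9.55 and 10.8% were called in these comparisons, and the difference from these shares was not tested. These 5 chaperones are not all ER members. Dnajb14, Dnajc10 and Dnajc1, which edgeR called in some comparisons, and Dnajb12 and Dnajc14, which it did not call, are others, and no full ER list was tested. Hspa5 (BiP), the ER HSP70, stood at 561, 583 and 394 CPM in shCtr, 399.8, 646 and 631 in shOSGEP#1 and 720.4 and 847 in shOSGEP#2. Both shOSGEP#2 libraries were above shCtr, but shOSGEP#1 was spread from near the lowest shCtr value to above the highest, and neither was called (log2 fold change 0.11, SE 0.211, edgeR adjusted p 0.747 for shOSGEP#1, and log2 fold change 0.52, SE 0.234, edgeR adjusted p 0.138 for shOSGEP#2). Hsp90b1 (GRP94), the ER HSP90, stood at 436, 388 and 286 CPM in shCtr, 337, 530.4 and 601 in shOSGEP#1 and 336 and 331 in shOSGEP#2. Its shOSGEP#2 libraries lay within shCtr, and shOSGEP#1 reached above it. Exons of Hsp90b1 overlap Gm15344 and the microRNA gene Gm25745 on the same strand. Of the 3 J proteins among these 5, Dnajb9 ranged from 25.9 to 62.4 CPM over the 8 libraries, Dnajb11 from 77.2 to 187 and Dnajc3 from 75.5 to 140.3, with overlapping groups.

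In mitochondria, Hspa9 (mortalin) stood at 793, 826 and 638 CPM in shCtr, 757, 649 and 764 in shOSGEP#1 and 807 and 1104 in shOSGEP#2. Replicate 1 of shOSGEP#2 lay within shCtr and replicate 3 above it. Hspd1, which forms the chaperonin barrel, stood at 586, 591 and 611 CPM in shCtr, 817, 721 and 848 in shOSGEP#1 and 618 and 664 in shOSGEP#2. All shOSGEP#1 and shOSGEP#2 libraries lay above shCtr, and shOSGEP#1 was called by DESeq2 but not by edgeR (log2 fold change 0.40, SE 0.131, edgeR adjusted p 0.0484). For shOSGEP#2 the distance was small, and the fit with TMM scaling showed no difference (edgeR adjusted p 0.97). Its lid Hspe1 stood at 151, 93.4 and 135 CPM in shCtr, 109, 122 and 132 in shOSGEP#1 and 131 and 97.3 in shOSGEP#2, with overlapping groups. Hspd1 and Hspe1 lie head to head and their exons overlap on opposite strands.

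Of 8 small heat shock proteins 6 were tested. The main edgeR test called 0 of them against shCtr, next to 9.67 and 9.55% of all genes. With only the groups compared edgeR called Hspb8 for shOSGEP#1, and with no filter Hspb6 for shOSGEP#2. The unadjusted p was under 0.05 for 3 with shOSGEP#1 and 4 with shOSGEP#2, and DESeq2 called 1 (Hspb8) and 2 (Hspb6 and Hspb8). Their log2 fold changes ran from −4.16 to 0.42 for shOSGEP#1 and from −3.52 to 1.70 for shOSGEP#2. Hspb11 carries the symbol but is a subunit of the ciliary transport machinery and not a classical small heat shock protein. All 6 Bag genes were tested, and Bag3 was the 1 called by edgeR. This was 16.7% of the 6 for shOSGEP#2 versus shCtr and also between the shRNAs, next to 9.55 and 10.8% of all genes. Together the 6 made up 0.0777, 0.0717 and 0.0658% of counts in shCtr, 0.0902, 0.0940 and 0.0894% in shOSGEP#1 and 0.0837 and 0.0662% in shOSGEP#2. The shOSGEP#1 shares were the 3 highest, with Bag6 the largest part of each. For shOSGEP#1 edgeR called 0 of the 6, next to 9.67% of all genes, but the unadjusted p was under 0.05 for 5, and DESeq2 called 1 (Bag1). Without Bag3, their log2 fold changes ran from −0.50 to 0.64 for shOSGEP#1. Bag1, added here because of its values, stood at 47.2, 40.4 and 38.7 CPM in shCtr, 69.6, 70.8 and 58.5 in shOSGEP#1 and 50.6 and 37.5 in shOSGEP#2. All shOSGEP#1 libraries lay above the other 5 (edgeR adjusted p 0.0219). Bag1, Bag2, Bag4, Bag5 and Bag6 had log2 fold changes from −0.38 to 0.29 for shOSGEP#2.

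The shRNAs were also compared with each other, since both target Osgep and their own difference has to be tested to say that a member responded to 1 of them. Hspb6, Dnajb5, Dnajc1 and Hspa4l were higher in shOSGEP#2 than in shOSGEP#1, and Bag3, Hspa12b, Dnajb14, Dnajc7 and Dnajb6 were lower. These 9 were 12.3% of the members tested, next to 10.8% of all genes (1375), with 6.23% higher and 4.56% lower. The median log2 fold change was −0.17 over the members and −0.04 over all genes (−0.10 and 0.04 with library totals). With library totals 5 members were higher and 4 lower, as Dnajc7 lost its call and Dnajc21 gained one. Without shCtr replicate 2, shOSGEP#1 replicates 1 or 2, or shOSGEP#2 replicate 3, 5 members were called. The count of all genes was 821 without shOSGEP#1 replicate 2 and 743 without shOSGEP#2 replicate 3. DESeq2 on the 8 libraries called 20 members, the 9 among them, and 2592 of all genes.

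Hspb6, a small heat shock protein of muscle, had the largest of these differences, at 15.9, 13.1 and 7.82 CPM in shCtr, 5.67, 4.66 and 8.08 in shOSGEP#1 and 49.4 and 22.4 in shOSGEP#2. Both shOSGEP#2 libraries lay above all others but differed from each other, and shOSGEP#1 overlapped shCtr (log2 fold change 2.49, SE 0.393, edgeR adjusted p 0.0013). Hspb6 kept the call in each of the 8 fits that left out 1 library, with an adjusted p of at most 0.00977, and ranged from 1.56e-08 to 0.16 over 17 alternatives. Its exons overlap those of Proser3 and Lin37 on the other strand and the microRNA gene Gm38670 on the same strand. Dnajb5, a J protein close to Dnajb1, stood at 13.2, 12.2 and 10.0 CPM in shCtr, 8.25, 8.04 and 10.0 in shOSGEP#1 and 30.2 and 20.9 in shOSGEP#2. The shOSGEP#2 libraries were again the highest, and shOSGEP#1 replicate 3 was level with shCtr replicate 3 (log2 fold change 1.47, SE 0.250, edgeR adjusted p 0.00199). Dnajb5 lost the call without shOSGEP#1 replicate 2 and shOSGEP#2 replicate 1 (adjusted p up to 0.0113), and ranged from 1.86e-06 to 0.236 over 17 alternatives. Dnajc1, an ER J protein that faces the ribosome, stood at 41.1, 37.0 and 51.1 CPM in shCtr, 25.0, 36.9 and 39.7 in shOSGEP#1 and 91.0 and 86.0 in shOSGEP#2. Its shOSGEP#2 libraries were close to each other and above the other 6 (log2 fold change 1.30, SE 0.221, edgeR adjusted p 0.00191). Dnajc1 kept the call in each of the 8 fits that left out 1 library, with an adjusted p of at most 0.00997, and ranged from 1.65e-06 to 0.857 over 17 alternatives. Exons of Dnajc1 overlap those of Mllt10 on the other strand. Against shCtr, DESeq2 called Hspb6, Dnajb5 and Dnajc1 higher for shOSGEP#2, and the main edgeR test did not (edgeR adjusted p 0.0204, 0.0146 and 0.0121). Other edgeR fits did, with no filter for Hspb6 and Dnajc1 and with library totals for Dnajb5 and Dnajc1. Hspa4l, an HSP110 relative, stood at 30.0, 28.6 and 30.0 CPM in shCtr, 23.3, 21.5 and 20.5 in shOSGEP#1 and 37.2 and 49.8 in shOSGEP#2. Its 3 groups did not overlap, with shCtr between the shRNAs (log2 fold change 0.91, SE 0.178, edgeR adjusted p 0.00436). Hspa4l lost the call without shCtr replicate 2, shOSGEP#1 replicates 1 and 2 and shOSGEP#2 replicate 3 (adjusted p up to 0.0368), and ranged from 5.61e-05 to 0.911 over 17 alternatives.

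Bag3 was lower in shOSGEP#2 also against shOSGEP#1 (log2 fold change −1.63, SE 0.233, edgeR adjusted p 0.000741). Bag3 kept the call in each of the 8 fits that left out 1 library, with an adjusted p of at most 0.00754, and ranged from 4.15e-10 to 0.452 over 17 alternatives. Dnajb14 was lower (log2 fold change −1.39, SE 0.210, edgeR adjusted p 0.000969), with the high values in shOSGEP#1. Dnajb14 kept the call in each of the 8 fits that left out 1 library, with an adjusted p of at most 0.00683, and ranged from 2.09e-08 to 0.554 over 17 alternatives. Dnajb6 was lower (log2 fold change −0.78, SE 0.153, edgeR adjusted p 0.00456), with the low values in shOSGEP#2. Dnajb6 lost the call without shCtr replicates 1 and 2, shOSGEP#1 replicates 1 and 2 and shOSGEP#2 replicate 3 (adjusted p up to 0.0428), and ranged from 2.09e-05 to 0.331 over 17 alternatives. Hspa12b was lower as well (log2 fold change −1.42, SE 0.301, edgeR adjusted p 0.00681). Hspa12b lost the call without shCtr replicates 1, 2 and 3, shOSGEP#1 replicates 1 and 2 and shOSGEP#2 replicates 1 and 3 (adjusted p up to 0.0244), and ranged from 0.000104 to 0.422 over 17 alternatives. Dnajc7 was the last of the 9 (log2 fold change −0.91, SE 0.205, edgeR adjusted p 0.00924). Dnajc7 lost the call without any 1 of the 8 libraries (adjusted p up to 0.0644), and ranged from 0.000381 to 0.731 over 17 alternatives.

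The shallow library, shOSGEP#2 replicate 2, held counts of 33 members, and 40 of the 73 tested members were at 0. Members made up 0.785% of its counts (95% Wilson interval 0.762 to 0.808%), against 1.53 and 1.58% in the other shOSGEP#2 libraries. Hspa9 was at 0 there although it stood at 638 to 1104 CPM in the other 8. Of 65 members for which the other shOSGEP#2 libraries give at least 3 counts at this depth, 32 had none. Bag3, Hsph1, Dnajb1 and Cct3 were at 0, while Dnaja2 (185 CPM) and Dnajc22 (105 CPM), called lower in shOSGEP#2, were above all shCtr libraries. Hspa12b was at 0 too, but the other shOSGEP#2 libraries give only 2.24 counts at this depth. Dnajb6 (121 CPM) lay below all shCtr libraries and above the other shOSGEP#2 libraries. Lars2 took 6.79% of its counts, the melanocyte markers summed to 1664 CPM with Tyr and Mitf at 0, and Col1a1 alone gave the fibroblast sum of 68.5 CPM. With this library in the fit, edgeR called 0 members and 0% of 12337 genes (0 in each comparison), with 3, 10 and 10 members at an unadjusted p under 0.05, and the median of all genes moved to −0.37 for shOSGEP#2 versus shCtr. DESeq2 on all 9 libraries called 0 members for shOSGEP#1, 3 for shOSGEP#2 (Bag3, Dnajb6 and Hspa12b) and 3 between the shRNAs (Dnajb5, Dnajb6 and Hspb6).

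Genes that work with these chaperones were taken as 7 lists with 74 genes, of which 69 were tested. They covered heat shock factors, HSP90 cochaperones, HSP70 cochaperones and exchange factors, prefoldin and TRiC cofactors, mitochondrial chaperones and proteases, collagen and crystallin chaperones, and aggregate handling. For shOSGEP#1, 3 were higher and 3 lower, for shOSGEP#2, 1 was higher and 3 lower, and between the shRNAs 3 were higher and 4 lower. These were 8.70, 5.80 and 10.1% of the 69, next to 9.67, 9.55 and 10.8% of all genes tested. The shares were near or below the background, and the difference was not tested. Their median log2 fold changes were 0.09, −0.19 and −0.23. The edgeR calls lay in the heat shock factors, the HSP90 and HSP70 cochaperones and aggregate handling.

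Ptges3 (p23), which stabilises the ATP-bound form of HSP90, stood at 424, 505 and 485 CPM in shCtr, 363, 369.6 and 456 in shOSGEP#1 and 178 and 203 in shOSGEP#2. Both shOSGEP#2 libraries lay far below the other 6 (log2 fold change −1.40, SE 0.175, edgeR adjusted p 0.000445). Ptges3 kept the call in each of the 8 fits that left out 1 library, with an adjusted p of at most 0.00385, and ranged from 3.64e-13 to 0.157 over 17 alternatives. Against shOSGEP#1 it was lower as well (log2 fold change −1.14, SE 0.173, edgeR adjusted p 0.00103), with an adjusted p of at most 0.008 in the 8 fits that left out 1 library and 4.32e-09 to 0.183 over 17 alternatives. Fnip2, a folliculin partner that slows HSP90, stood at 93.7, 102 and 98.5 CPM in shCtr, 112.3, 101 and 104 in shOSGEP#1 and 60.6 and 55.2 in shOSGEP#2. Its shOSGEP#2 libraries were the lowest (log2 fold change −0.85, SE 0.150, edgeR adjusted p 0.00281 against shCtr, and log2 fold change −0.94, SE 0.151, edgeR adjusted p 0.00137 against shOSGEP#1). Fnip2 lost the call without shCtr replicates 1 and 2 and shOSGEP#2 replicate 3 (adjusted p up to 0.0237), and ranged from 2.83e-06 to 0.752 over 17 alternatives. Between the shRNAs it was lost without shOSGEP#2 replicate 3 (adjusted p 0.0136, and 7.88e-08 to 0.712 over 17 alternatives). Hsf4, the heat shock factor of the lens, stood at 26.0, 26.0 and 22.7 CPM in shCtr, 13.1, 15.9 and 9.32 in shOSGEP#1 and 12.0 and 8.11 in shOSGEP#2. All shOSGEP libraries lay below shCtr, and shOSGEP#2 was called (log2 fold change −1.39, SE 0.285, edgeR adjusted p 0.00645), while shOSGEP#1 was called by DESeq2 but not by edgeR (log2 fold change −0.97, SE 0.243, edgeR adjusted p 0.0163). Hsf4 lost the call without shCtr replicates 1, 2 and 3, shOSGEP#1 replicate 1 and shOSGEP#2 replicate 3 (adjusted p up to 0.046), and ranged from 4.12e-05 to 0.813 over 17 alternatives. Hsf1, the main heat shock factor, stood at 87.9, 79.6 and 74.2 CPM in shCtr, 61.3, 68.9 and 60.7 in shOSGEP#1 and 75.4 and 45.4 in shOSGEP#2, and its difference was not called for shOSGEP#2 (edgeR adjusted p 0.128).

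Sil1, the exchange factor of BiP, stood at 8.43, 7.14 and 8.40 CPM in shCtr, 17.6, 30.6 and 36.8 in shOSGEP#1 and 17.3 and 26.5 in shOSGEP#2. Libraries of both shRNAs lay above all of shCtr, and both differences were called (log2 fold change 1.81, SE 0.278, edgeR adjusted p 0.00159 for shOSGEP#1, and log2 fold change 1.35, SE 0.301, edgeR adjusted p 0.0096 for shOSGEP#2). For shOSGEP#1 the call was lost without shCtr replicate 2 (adjusted p 0.0127, and 1.83e-08 to 1 over 17 alternatives). For shOSGEP#2 it was lost without shCtr replicates 1, 2 and 3, shOSGEP#1 replicate 2 and shOSGEP#2 replicate 3 (adjusted p up to 0.0742, and 0.000318 to 0.818 over 17 alternatives). Sec63, a J protein of the ER translocon, stood at 50.8, 50.2 and 56.4 CPM in shCtr, 75.6, 111 and 149 in shOSGEP#1 and 70.1 and 62.4 in shOSGEP#2. The shOSGEP#1 libraries were the highest (log2 fold change 1.08, SE 0.218, edgeR adjusted p 0.00598). Those of shOSGEP#2 lay above shCtr as well, with no call (edgeR adjusted p 0.498). Nor was the difference between the shRNAs called (edgeR adjusted p 0.0328). Sec63 lost the call without shCtr replicates 1, 2 and 3 and shOSGEP#1 replicates 2 and 3 (adjusted p up to 0.0341), and ranged from 3.50e-05 to 1 over 17 alternatives. St13 (Hip), which holds HSP70 on its client, stood at 371, 375 and 343 CPM in shCtr, 517, 524 and 564 in shOSGEP#1 and 346 and 278 in shOSGEP#2. The shOSGEP#1 libraries lay above all others, and shOSGEP#2 was lower than shOSGEP#1 (log2 fold change −0.86, SE 0.165, edgeR adjusted p 0.0041). Against shCtr, shOSGEP#1 was called by DESeq2 but not by edgeR (edgeR adjusted p 0.0207). St13 lost the call without shCtr replicate 2, shOSGEP#1 replicates 1 and 2 and shOSGEP#2 replicate 3 (adjusted p up to 0.0416), and ranged from 2.44e-06 to 0.233 over 17 alternatives.

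The HSP90 cochaperones, the largest of the lists with 22 genes tested, had 18.2, 9.09 and 22.7% called in the 3 comparisons, next to 9.67, 9.55 and 10.8% of all genes. Unc45a, a myosin chaperone that works with HSP90, stood at 63.7, 67.5 and 62.6 CPM in shCtr, 36.8, 32.5 and 25.1 in shOSGEP#1 and 57.3 and 64.4 in shOSGEP#2. Its shOSGEP#1 libraries were the 3 lowest (log2 fold change −1.05, SE 0.165, edgeR adjusted p 0.00179 against shCtr), and shOSGEP#2 was higher than shOSGEP#1 (log2 fold change 0.87, SE 0.181, edgeR adjusted p 0.0064). Against shCtr the call was lost without shCtr replicate 2 (adjusted p 0.0129, and 1.85e-07 to 0.875 over 17 alternatives), and between the shRNAs without shCtr replicates 1, 2 and 3, shOSGEP#1 replicates 2 and 3 and shOSGEP#2 replicates 1 and 3 (adjusted p up to 0.0371, and 0.000141 to 0.593 over 17 alternatives). Ttc4, a TPR cochaperone, stood at 35.0, 40.02 and 38.2 CPM in shCtr, 22.8, 18.5 and 22.2 in shOSGEP#1 and 39.1 and 47.7 in shOSGEP#2. Its shOSGEP#1 libraries were again the lowest (log2 fold change −0.85, SE 0.162, edgeR adjusted p 0.00448 against shCtr, and log2 fold change 0.95, SE 0.178, edgeR adjusted p 0.00344 between the shRNAs). Against shCtr the call was lost without shCtr replicates 1, 2 and 3 and shOSGEP#1 replicates 1 and 2 (adjusted p up to 0.0313, and 5.26e-05 to 1 over 17 alternatives), and between the shRNAs without shOSGEP#1 replicate 2 and shOSGEP#2 replicate 3 (adjusted p up to 0.026, and 3.38e-05 to 0.904 over 17 alternatives).

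Ahsa2, a relative of the HSP90 ATPase activator, stood at 51.0, 53.9 and 47.2 CPM in shCtr, 28.3, 24.2 and 23.1 in shOSGEP#1 and 35.9 and 34.4 in shOSGEP#2. Libraries of both shRNAs lay below shCtr, and shOSGEP#1 was called (log2 fold change −1.02, SE 0.152, edgeR adjusted p 0.00135), while shOSGEP#2 was called by DESeq2 but not by edgeR (log2 fold change −0.62, SE 0.171, edgeR adjusted p 0.0261). Ahsa2 lost the call without shCtr replicate 2 (adjusted p up to 0.0125), and ranged from 3.20e-08 to 1 over 17 alternatives. Cdc37l1, a relative of the kinase cochaperone Cdc37, stood at 33.0, 36.8 and 47.6 CPM in shCtr, 62.6, 67.7 and 94.9 in shOSGEP#1 and 76.5 and 82.3 in shOSGEP#2. Libraries of both shRNAs lay above shCtr, with a call for shOSGEP#1 (log2 fold change 0.93, SE 0.198, edgeR adjusted p 0.00774) while shOSGEP#2 was called by DESeq2 but not by edgeR (log2 fold change 0.93, SE 0.218, edgeR adjusted p 0.0126). Cdc37l1 lost the call without shCtr replicates 1 and 2 and shOSGEP#1 replicates 2 and 3 (adjusted p up to 0.0439), and ranged from 0.00018 to 1 over 17 alternatives. Ppid (cyclophilin 40) stood at 50.9, 48.8 and 46.5 CPM in shCtr, 64.9, 62.0 and 65.2 in shOSGEP#1 and 42.7 and 41.2 in shOSGEP#2. The 3 groups did not overlap, with shOSGEP#1 highest and shOSGEP#2 lowest (log2 fold change −0.69, SE 0.153, edgeR adjusted p 0.00848 between the shRNAs). Ppid lost the call without any 1 of the 8 libraries (adjusted p up to 0.0504), and ranged from 0.00021 to 0.773 over 17 alternatives. Hdac6, which deacetylates HSP90 and gathers aggregates, stood at 48.2, 53.7 and 46.6 CPM in shCtr, 35.2, 35.9 and 30.7 in shOSGEP#1 and 55.2 and 70.5 in shOSGEP#2. Its groups did not overlap either, with shOSGEP#1 lowest and shOSGEP#2 highest (log2 fold change 0.80, SE 0.168, edgeR adjusted p 0.00644 between the shRNAs). For shOSGEP#1 versus shCtr it was called by DESeq2 but not by edgeR (edgeR adjusted p 0.024). Hdac6 lost the call without shCtr replicates 1 and 2, shOSGEP#1 replicates 1, 2 and 3 and shOSGEP#2 replicate 3 (adjusted p up to 0.0524), and ranged from 0.000155 to 0.837 over 17 alternatives.

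HSF1 binds repeats of a short unit, nGAAn, in alternating direction. Pairs of units that face each other, GAA and TTC in either order with 2 bases between, were searched on both strands of RefSeq windows of 250 bases before to 50 bases after the gene start, which were found for 70 of the 86 members (90 windows). A 3-unit match joins both pairs in overlap. The pair was in 24.4% of member windows and 15.1% of all 32851 windows, and the 3-unit match in 6.67 and 0.603%. A gene can have more than 1 window, so the same site can be counted more than once. By gene, the pair was in 28.6% of the members and 17.0% of all genes with a window, and the 3-unit match in 5.71 and 0.662%. The 3-unit match was in windows of Hspd1, Hspe1, Dnajb6 and Hsph1. Hspd1 and Hspe1 lie head to head with matches at the same spacing, so the share by gene may also count the same site for both. Of 16 tested members with the pair, 3 were called lower for shOSGEP#2 (Bag3, Hsph1 and Dnajb6), and of 43 tested without it, also 3, while Dnajc22 had no window. Among all genes tested 3.89% were called lower. With library totals Dnajb6, and Dnaja2 among those without the pair, were not called for shOSGEP#2. For shOSGEP#1, 1 of the 16 with the pair was called higher and 0 lower. Of the 43 without it, 2 were higher and 2 lower, next to 5 and 4.67% of all genes. A match describes letters and is no site of binding. The 250 bases before the start of Dnajb6 and Hsph1 are shown because both were called lower for shOSGEP#2 and their windows hold the 3-unit match, which lies after the start in Hsph1. They are chr5:29735648-29735897 on the plus strand for Dnajb6 and chr5:149636337-149636586 on the minus strand for Hsph1 (RefSeq, GRCm38.p6), written 5′ to 3′ with the match nearest the start in capitals, which begins 46 bases before it in Dnajb6 (3-unit) and 33 in Hsph1 (pair).
Dnajb6: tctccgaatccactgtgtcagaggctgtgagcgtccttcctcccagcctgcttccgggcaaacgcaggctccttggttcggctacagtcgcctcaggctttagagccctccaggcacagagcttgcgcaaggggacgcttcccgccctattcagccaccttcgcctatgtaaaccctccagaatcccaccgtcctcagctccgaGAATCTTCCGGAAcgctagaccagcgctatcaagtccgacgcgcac
Hsph1: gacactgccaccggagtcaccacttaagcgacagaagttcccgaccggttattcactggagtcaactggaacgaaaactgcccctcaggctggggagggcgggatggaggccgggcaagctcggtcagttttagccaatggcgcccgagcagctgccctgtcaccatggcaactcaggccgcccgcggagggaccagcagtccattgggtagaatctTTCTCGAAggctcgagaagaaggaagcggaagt

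Codons that start with A, which are read by the tRNAs that carry t6A, were counted in the longest coding sequence of each gene (GENCODE vM21). They made up a median of 29.1% of codons over 85 of the 86 members (quartiles 26.0 and 30.9%) and 26.9% over 12598 of the genes tested (quartiles 23.6 and 29.8%). The quartile ranges overlapped. Hspb6 had the lowest share of the members (8.64%) and Dnajc28 the highest (34.2%).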

How the data were processed

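RNA recovered with FLAG-RIG-I was sequenced from 9 B16F10 libraries in 3 groups. The values are the whole-number gene counts the authors deposited, made by them with Trim Galore, STAR and Salmon on GRCm39, and used here with no rounding. Each replicate is stated to be an independent experiment. The members, classes, lists and the 8 libraries of the main fit were chosen with earlier results of these data known. The main test was the quasi-likelihood test of edgeR 4.0.16 (R 4.3.3) with TMM factors and filterByExpr, fitted over 8 libraries and all 3 groups, with Benjamini-Hochberg adjustment over the 12744 genes tested and a threshold of 0.01. CPM uses library totals, and mean transcript lengths and coding sequences come from GENCODE vM21 (22285 of 22396 identifiers matched). For Cct6a the length is that of the longest transcript.

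Alternatives were all 9 libraries, DESeq2 1.42.0 on 8 or 9 libraries, RLE factors, library totals, no filter, a threshold of 0.05, only the groups compared, the replicate number as a block, and leaving out each library. The fits were tested on simulated data with large changes, put only into abundant genes of shOSGEP#1. Smaller changes, changes of scarce genes and changes in shOSGEP#2 were not covered. Named are all called members, the inducible genes and their constitutive relatives, the 5 highest per length, TRiC, ER and mitochondrial members, called genes of the lists, and Osgep. Tables were made with Python 3.11.15, pandas 2.3.3, numpy 2.4.6 and scipy 1.17.1, figures with matplotlib 3.10.9. Intervals and the floor of 3 counts cover counting error only. Reference coordinates are of GRCm38 and were used for sequence windows and overlaps of exons.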

Additional observations from a re-analysis of the deposited data

Results flagged for a closer look

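Members whose response differed between the shRNAs in the test of shOSGEP#2 versus shOSGEP#1 (edgeR) had these log2 fold changes. Hspb6 stood at 2.49, Dnajb5 at 1.47, Dnajc1 at 1.30 and Hspa4l at 0.91. Bag3 stood at −1.63, Hspa12b at −1.42, Dnajb14 at −1.39, Dnajc7 at −0.91 and Dnajb6 at −0.78. The depth of the shOSGEP#2 libraries, their Lars2 share and their marker sums also stood apart, and their part was not tested.

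The shallow library, shOSGEP#2 replicate 2, is outside the comparisons. In it 14 members stood above the highest shCtr library, 10 of them with the whole 95% interval of their counts. These 10 were Hspa5 with 1095 CPM, Dnajc3 with 383, Dnajc25 with 334, Dnaja2 with 185, Bag5 with 169, Dnajc8 with 116, Hspa13 with 111, Dnajc22 with 105, Hspb6 with 94.9 and Dnajb5 with 66.8. Of the other members, 46 had an interval that lay below the lowest shCtr library. Dnajc25 was at 7.29 to 14.7 CPM elsewhere, and its exons overlap those of another gene on the same strand.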

How the results depend on the processing

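Counts are given in the order shOSGEP#1 versus shCtr, shOSGEP#2 versus shCtr and shOSGEP#2 versus shOSGEP#1, for which the main test called 6, 7 and 9 members and 1232, 1217 and 1375 genes. With all 9 libraries edgeR called 0, 0 and 0 members and 0, 0 and 0 genes, although 620, 1240 and 1325 genes had a raw p below 0.05, and the common dispersion rose from 0.0692 to 0.420. DESeq2 called 11, 17 and 20 members and 2419, 2405 and 2592 genes on 8 libraries, and 0, 3 and 3 members and 122, 349 and 413 genes on all 9. At a threshold of 0.05 there were 13, 17 and 21 members and 2797, 2674 and 2952 genes. Without the filter there were 7, 11 and 13 members and 1748, 1603 and 1803 genes. With only the groups compared, 6, 4 and 5 members and 1495, 1023 and 737 genes were called. RLE factors gave 6, 6 and 9 members and library totals 6, 8 and 9. The cause of the differences between tools was not tested.

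Leaving out 1 library gave 0 to 6, 2 to 8 and 5 to 8 members, and 318 to 1458, 518 to 1471 and 743 to 1504 genes, where a group of shOSGEP#2 with 1 library is taken to vary like the other groups. The lowest counts came without shCtr replicate 2 for both comparisons with shCtr (318 and 518 genes) and without shOSGEP#2 replicate 3 between the shRNAs (743). Bag3 in both comparisons of shOSGEP#2, Dnajb14, Dnajc1 and Hspb6 between the shRNAs, and Ptges3 in both, were called in all 8 of these fits. Over the 16 alternatives read at 0.01, the 39 called differences of members and related genes kept direction, 392 times past the threshold and 232 times not. A set of 12 uncalled differences passed it 25 times of 192. These were the larger uncalled differences from shCtr of the named inducible genes, their constitutive relatives and Osgep. They do not stand for all uncalled members.

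Libraries of different groups share only a replicate number, and pairing is not stated. Deviations from group means correlated at 0.0809 between libraries of the same number (7 pairs, −0.00337 to 0.180) and −0.0398 otherwise, and in 9 of 14 checks a library correlated best with its own number. The replicate block gave 7, 9 and 9 members and 1380, 1238 and 1393 genes. It added Dnajb1 for shOSGEP#1, for shOSGEP#2 it added Dnajb1, Dnajc10 and Hspa8 and left out Dnaja2, and between the shRNAs it added Cct3 and Dnaja3 and left out Hspa12b and Hspa4l. Of the called genes of the related lists it left out Ppid, between the shRNAs.

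Depth and replication limit these results. shOSGEP#2 rests on 2 deep libraries, members with fewer than 3 counts in a library cannot be told from 0 there, and values are shares of RNA recovered with RIG-I. The comparisons share their libraries, so their calls are not independent.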
